A study of Drosophila melanogaster with 6 samples.

Results

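The control ovaries of this study were hybridized on 3 of its 6 arrays, each time together with the same wild-type ovary RNA. The 3 arrays were chosen by their titles, which call them control ovaries, and the 3 ectopic arrays entered no test here. The control females carried GAL80TS/+ ; GR1-GAL4/TM6B, which is a GAL4 driver for the follicle cells, a temperature-sensitive GAL4 inhibitor and a balancer chromosome, with no UAS transgene for the driver to act on. Their crosses were kept at 18 °C, the females were fed yeast for 2 days, and they spent 16 h at 29 °C before dissection at an age of 5 to 8 days. The reference came from OreR wild-type females raised at room temperature, fed yeast and held at 25 °C for 2 days. Control RNA was always labeled with Cy5 and reference RNA with Cy3, with 322 ng of RNA in each labeling.

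The Drosophila ovary holds egg chambers in which germline cells are wrapped by a follicular epithelium, and whole ovaries also bring in the muscle sheath around them. In the GAL4-UAS system, GAL4 switches on genes placed behind UAS sites, and GAL80TS blocks GAL4 at low temperature and releases it at high temperature. A comparison of a driver line that has no UAS gene with OreR describes the baseline of that line, and it was not the contrast the study was built on.

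Several properties of the design limit what a ratio can mean. Strain, balancer, GAL4 and GAL80, temperature history and dye all differ between the groups in the same way on all 3 arrays and cannot be told apart. The age of the reference females is not given in the sources used here. Each control RNA was pooled from several ovary pairs, and the reference was 1 pool from several dissections, so its own spread is absent from the error. In RNA of whole ovaries, fewer cells of a type and less RNA per cell cannot be told apart either. With 3 arrays, an exact two-sided sign-flip permutation test of a single value cannot fall below p = 0.25, so the tests below are limma's moderated tests across all probes.

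Each array held 43602 spots other than controls, which formed 32162 probes. In the control channel 24903, 24449 and 33915 spots were well above background on replicates 1, 2 and 3, so replicate 3 had the most. In the reference channel the counts were 24378, 23385 and 25494, and 0 spots were saturated. The standard deviation of the log2 ratio over all probes was 0.306, 0.321 and 0.324 on replicates 1, 2 and 3. On 153 negative-control spots it was 0.128, 0.119 and 0.119. Across 15329 probes above background in both channels on every array, Pearson's r was 0.921 between replicates 1 and 2, 0.766 between 1 and 3, and 0.801 between 2 and 3. These correlations run across probes that share the reference RNA, and they describe the arrays without a test. Replicate 3 was thus the least like the others, although replicate 2 had the more extreme departures, as follows.

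Replicate 2 stood apart at a small set of probes. Of 37 probes whose 3 arrays differed by at least 2 on the log2 scale, 36 were high on replicate 2 alone and 1 was low on replicate 3. The 36 probes belonged to 33 identifiers. Their log2 ratio had a median of 0.02 on replicate 1 (from -0.26 to 0.20), of 2.78 on replicate 2 (from 1.93 to 4.30) and of -0.01 on replicate 3 (from -0.37 to 0.46). The probes were chosen for this gap, so the values are a description. The median intensity of these probes was 98.75 and 118 scanner units in the control channel of replicates 1 and 3, and 1259 on replicate 2. In the reference channel, which held the same RNA each time, it was 48 and 48.4 on replicates 1 and 3 and 76 on replicate 2. Fewer of the probes were above background elsewhere: 14 of 36 in the control channel on replicate 1, 23 on replicate 3 and 36 on replicate 2.

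Of these 36 probes, 0 passed limma's test after adjustment and 0 had an unadjusted p under 0.05, so they are not among the calls given below. Values high on 1 array alone widen the spread, so a small p was hardly possible for probes chosen in this way. None of them matched a gene name. Just under the same range lay LysE, a lysozyme gene of the digestive tract with closely similar neighbours that its probe may also read. Its log2 ratio was -0.05 on replicate 1, 1.89 on replicate 2 and -0.04 on replicate 3. The control-channel intensity was 108 and 103 on replicates 1 and 3 and 551 on replicate 2, and the gene did not pass (adjusted p = 0.376, limma). LysE was picked out after its values were seen. None of the 16 gut markers listed for a check of other tissues had a named probe, so a part of gut RNA in this pattern was not tested.

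**Figure D1:**
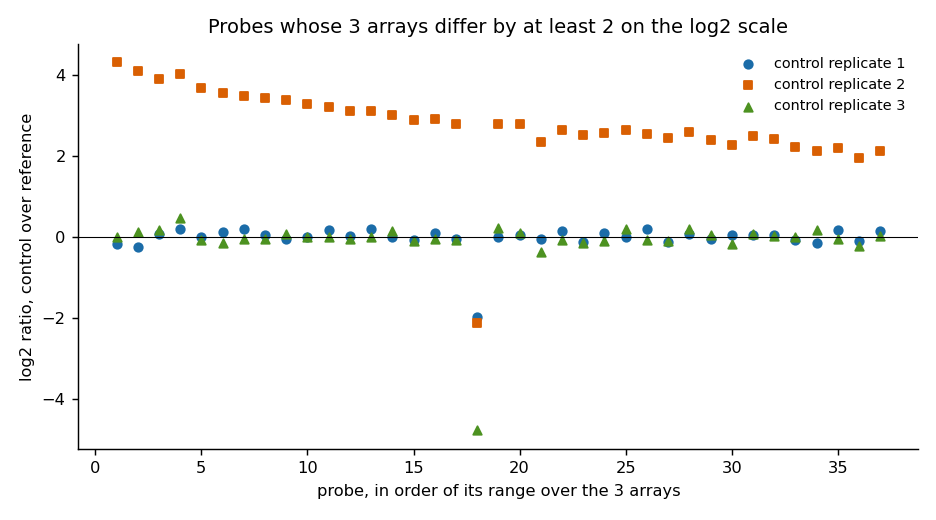
The 37 probes whose log2 ratio of control over reference differed by at least 2 among the 3 arrays, in order of that range on the horizontal axis, with 1 point per control array on the vertical axis. In 36 of them replicate 2 (squares) lies between 1.93 and 4.30 while replicates 1 and 3 lie near 0, and in 1 replicate 3 lies lower than the others.

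Control and OreR ovaries differed at few probes by more than 2-fold. At an adjusted p of 0.05 and at least a 2-fold difference, 202 probes were higher in control ovaries (0.628% of those tested) and 210 were lower (0.653%), together 1.28%. The adjusted p alone was passed by 2301 probes in the higher direction (7.15%) and 2576 in the lower (8.01%). Of the 15329 probes above background in both channels on every array, 62.3% had a mean log2 ratio within 0.2 of 0. The share was 95% among the 16833 other probes, which were below background somewhere. Of the 412 called probes, 361 were among the 15329.

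The called probes had the same sign on all 3 arrays in 412 of 412 cases. Of the higher probes, 164 exceeded a 2-fold difference on every array, as did 147 of the lower. The median log2 ratio was 1.40 among the higher and -1.26 among the lower, and 51 higher and 32 lower probes differed by at least 4-fold. For 14 of the higher probes the reference was not well above background on any array, so only a bound can be given. That bound was the mean control signal over the higher of each array's lowest detected signal and the probe's own in the scanner intensities, or the deposited fold where this was smaller. It ran from at least 2.05-fold to at least 15.5-fold, with a median of 2.94. For 5 lower probes the control channel was the one below background, and the reference was at least 2.01-fold to 4.23-fold higher. Scanner intensities with median centring and no intensity-dependent correction changed the balance of the calls, from 202 higher and 210 lower (49.0% higher) to 876 and 82 (91.4% higher).

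**Figure D2:**
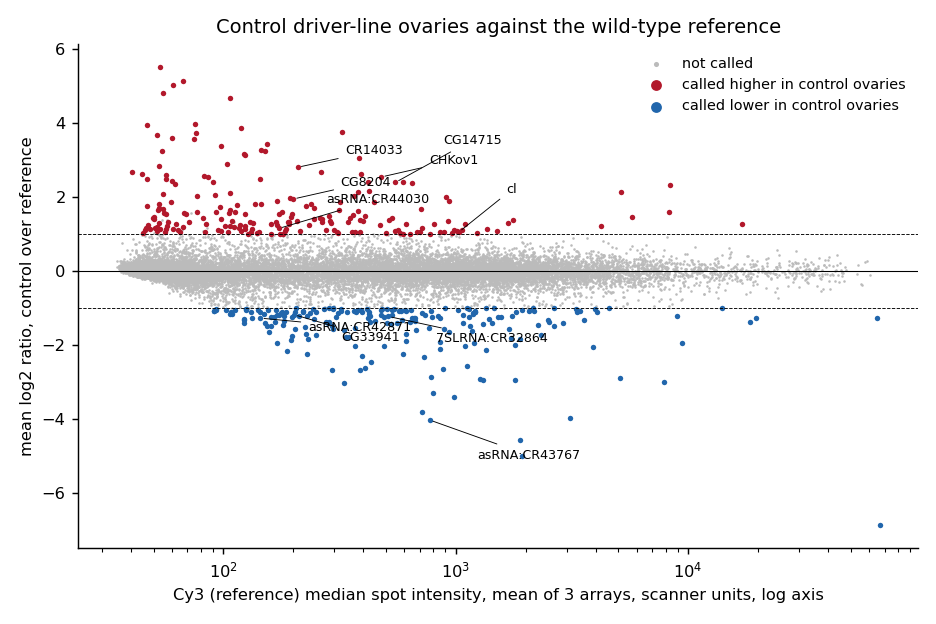
Each point is 1 probe, with the Cy3 intensity of the wild-type reference on the horizontal axis (scanner units, log axis) and the mean log2 ratio of control over reference over 3 arrays on the vertical axis. The 202 probes called higher (red) reach 5.52 and lie mostly at low to middle reference intensity, the 210 called lower (blue) reach -6.88, and dashed lines mark a 2-fold difference.

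Calls were unevenly spread over the intensity range, when the probes were ranked by reference signal and cut into 4 bins of equal size. In the dimmest bin 0.0622% of probes were called, and all 5 of those were higher. In the next bin the share was 0.373% (30 higher and 0 lower), in the third 2.5% (117 and 84) and in the brightest 2.19% (50 and 126). The called decreases thus lay in the brighter bins, where the reference signal was at least 57.2 scanner units. The bins were cut on the reference signal, which is the denominator of the ratio. A probe with a reference near background has little room for a decrease, so this pattern is partly built into the ranking.

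Probes called without 1 array had similar median values on the array left out. All arrays share the reference pool, the dye direction and the strain and temperature contrast. The agreement therefore concerns the repeatability of the arrays alone. Without replicate 1, 105 probes were called higher and 71 lower from the other arrays, and all of them had the same sign on replicate 1. Their median on replicate 1 was 1.81 for the higher probes, against 1.80 on the arrays that chose them, and -1.62 for the lower, also against -1.62. Without replicate 2, 64 were called higher and 42 lower, and all of these exceeded 2-fold in the same direction on replicate 2. Without replicate 3, 207 were called higher and 211 lower, of which 205 and 209 kept their sign on replicate 3. The share past 2-fold on replicate 3 was 84.5% of the higher and 75.8% of the lower probes. Leaving out replicate 1 or 2 thus cut the number of calls by more than 1.5 times, while the probes that were called had values of nearly the same size on the array left out.

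**Figure D3:**
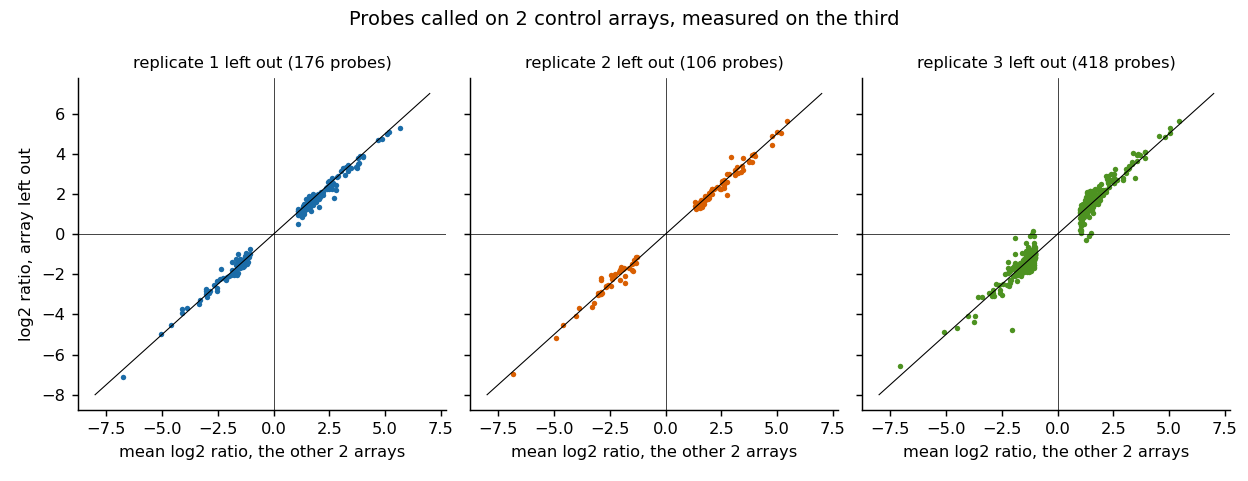
Each panel takes the probes called on 2 control arrays and plots their mean log2 ratio there (horizontal axis) against the log2 ratio on the array that was left out (vertical axis), with the line of equal values. All 176 probes without replicate 1 and all 106 without replicate 2 kept their sign, and 4 of 418 did not on replicate 3.

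The largest differences fell on probes that the files name only by an array or transcript identifier. Among probes above background in both channels on every array, the greatest increase was at probe A_09_P030671, with log2 ratios of 5.08, 5.04 and 5.28 (mean 5.13 ± 0.13, SD, n = 3; adjusted p = 1.87e-06, limma). Its control-channel intensity was 7494, 6192 and 6563 scanner units, against 65, 78 and 58.5 in the reference channel. The next was A_09_P024961, with 4.99, 5.09 and 5.05 (5.04 ± 0.05; adjusted p = 1.87e-06). Both were bright in the driver line and barely above background in OreR.

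The opposite pattern was as clear. At A_09_P180530 the reference channel read 61432, 65350 and 74532 units and the control channel 1341, 1290 and 2184, with log2 ratios of -7.13, -6.96 and -6.55 (-6.88 ± 0.30; adjusted p = 2.99e-06). At A_09_P186180 the log2 ratios were -4.98, -5.20 and -4.88 (-5.02 ± 0.16; adjusted p = 2.40e-06). The mean moved to -5.87 at a normexp offset of 0 and to -6.46 with the software ratio. A_09_P180530 was among the brightest probes of the reference. Its deposited ratio, which is normalized, corresponds to a 118-fold higher signal in the reference, more than the intensities above give directly. Under median centring without intensity-dependent correction its log2 ratio was -6.07. The files used here pair none of these 4 probes with a gene.

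Probes for the same transcript differed in size, and 1 identifier was called in both directions. It was FBtr0070583, the transcript of probe A_09_P030671. While that probe had a mean log2 ratio of 5.13, the other probes of FBtr0070583 had means of -2.997 and -2.91, both called lower (adjusted p = 5.19e-06 and 3.57e-06, limma). Each of the 3 probes varied little between arrays (SD 0.13, 0.08 and 0.02). A summary of FBtr0070583 by the mean of its probes gave a log2 ratio of -0.26, which describes none of them.

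More widely, 67 identifiers with a probe called higher had 87 other probes. Of these other probes, 57 had the same sign, 34 passed the adjusted p the same way and 9 the opposite way. Also called higher were 7, and the 2 called lower were those of FBtr0070583 given above. Their median log2 ratio was 0.12, against 1.25 for the best probe of each identifier. On the lower side, 59 identifiers had 77 other probes, of which 62 had the same sign. The adjusted p was passed the same way by 43 and the opposite way by 7. Called lower were 17, and the 1 called higher was again a probe of FBtr0070583. There the medians were -0.37 for the other probes and -1.28 for the best. The best probe was picked for its own result, so the medians are not a like comparison. Where the named probes of a gene disagree, the value of each is given below. Most probes carry identifiers that could not be tied to a gene, so further probes of a named gene may lie among them unseen.

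Only 494 of the 32162 probes (1.54%) could be tied to exactly 1 gene, and they covered 408 genes. Of these probes, 250 belonged to protein-coding genes, 146 to long noncoding RNAs and 73 to antisense RNAs. Called were 6 higher and 4 lower (2.02%, against 1.28% of all probes), and 27 higher and 51 lower passed the adjusted p (15.8%, against 15.2%). The named genes were thus called about as often as the array as a whole. Under median centring without intensity-dependent correction, 22 of the 78 named probes past the adjusted p turned from lower to higher, the largest of them at -0.56 in the deposited values. Under 5 other scalings 0 of 78 changed sign, but many lost the threshold. With the same direction, 40 of 78 passed under median centring, 20 at a normexp offset of 0, 22 with the ratio of the scanner software and from 74 to 77 under the remaining 3 scalings.

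Among the named probes of protein-coding genes, which are a small part of the array, CHKov1 had the largest increase. It encodes a kinase-like protein and is known from natural populations for alleles that affect resistance to the sigma virus. Its log2 ratios were 2.64, 2.43 and 2.56. The mean of 2.54 ± 0.11 (SD, n = 3) corresponds to a 5.83-fold higher signal in control ovaries (adjusted p = 9.02e-06, limma). CG14715, annotated under the name FKBP13 as an FK506-binding protein of the peptidyl-prolyl isomerase family, followed with 2.36, 2.25 and 2.58 (2.40 ± 0.17, 5.27-fold; adjusted p = 2.91e-05). In both genes the control signal was bright, from 5341 to 8286 units for CHKov1 and from 5658 to 8499 for CG14715. Both still passed the test when any single array was left out.

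CG8204 had log2 ratios of 1.75, 1.94 and 2.15 (1.95 ± 0.20; adjusted p = 8.39e-05), and clot (cl), named for an eye colour mutant and needed for the red drosopterin pigments, had 1.01, 0.93 and 1.22 (1.05 ± 0.15; adjusted p = 0.000365). CR14033, a pseudogene that overlaps the BMP receptor gene tkv, had 2.51, 2.66 and 3.26 at its most significant probe (2.81 ± 0.40; adjusted p = 0.000146). All 3 lay above 0 on every array, which the naming rule required. However, the other named probes of CR14033 had means of -0.12 and 0.12 and did not pass, so the increase was seen at 1 of its 3 named probes. The antisense RNA asRNA:CR44030, which overlaps fuss, had 1.17, 1.16 and 1.12 (1.15 ± 0.03; adjusted p = 9.08e-05). Without replicate 2 these 4 genes had adjusted p-values of 0.0579 (CG8204), 0.0635 (cl), 0.0653 (CR14033) and 0.0559 (asRNA:CR44030). Without replicate 1, cl and CR14033 also missed the threshold (0.0712 and 0.0527). With the software ratio cl missed it as well (adjusted p = 0.0551, limma).

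Smaller increases that passed the adjusted p and not the 2-fold limit were found in 4 further genes under the naming rule. The pseudogene CR43670 had log2 ratios of 0.53, 0.58 and 0.55, and its second probe had 0.63, 0.53 and 0.68, so here both probes read alike. Pa1, whose human counterpart associates with PTIP in a histone methyltransferase complex, had 0.66, 0.63 and 0.29 (adjusted p = 0.00958). It missed the threshold at a normexp offset of 0 and with the software ratio (adjusted p = 0.1 and 0.095, limma). Cpr49Ag, a cuticle protein gene, had 0.43, 0.47 and 0.45 (0.45 ± 0.02; adjusted p = 0.00256). At an offset of 0 it missed the threshold (adjusted p = 0.0728, limma). snRNA:U12, the minor-spliceosome RNA, is described with the other small RNAs. Without replicate 1 or without replicate 2 these 4 genes missed the threshold, with adjusted p from 0.0735 to 0.308, and without replicate 3 snRNA:U12 missed it too (0.155).

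**Figure D4:**
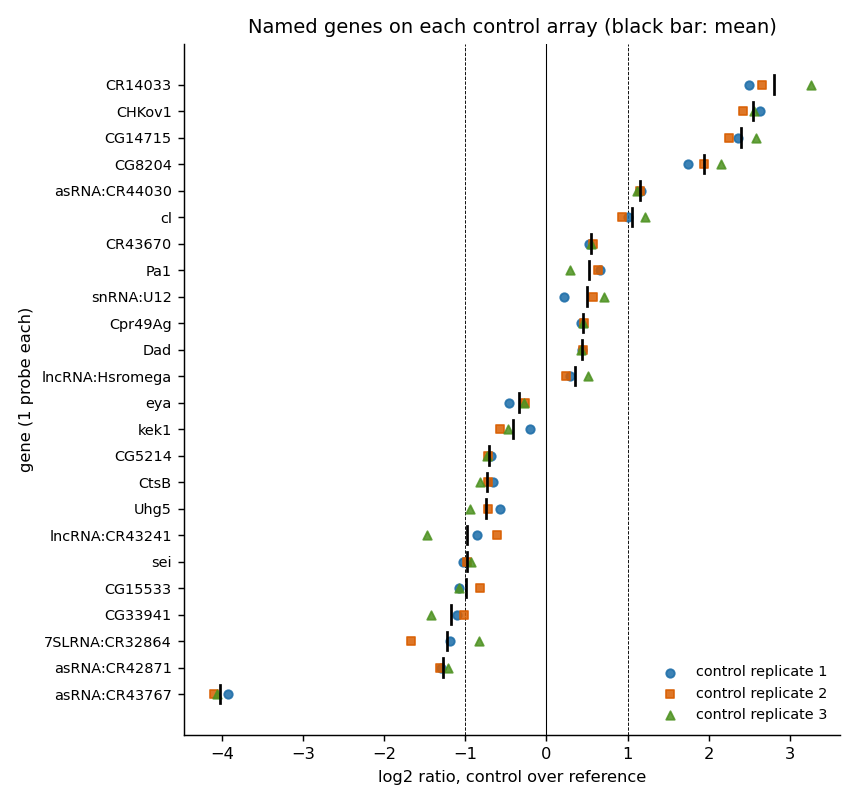
Log2 ratio of control over reference (horizontal axis) of the 24 genes chosen by rule, 1 probe each, on control replicates 1, 2 and 3, with a black bar at the mean and dashed lines at a 2-fold difference. The values run from a mean of 2.81 for CR14033 to -4.03 for asRNA:CR43767. No gene has arrays on both sides of 0, which the naming rule required of the largest changes.

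The largest named decrease was in asRNA:CR43767, an antisense RNA that overlaps Tango14. Its log2 ratios were -3.93, -4.10 and -4.07 (-4.03 ± 0.09; adjusted p = 2.40e-06, limma). The reference channel read 701, 853 and 761 units, while the control channel read 112, 97.5 and 120 and was above background on 2 of the 3 arrays. The transcript was thus close to the detection limit in the driver line, and the size of its ratio depended on the background correction, at -5.29 with a normexp offset of 0 and -6.52 with the software ratio. It still passed the test when any single array was left out. asRNA:CR42871, which overlaps CG6650 and CG6661, had -1.30, -1.31 and -1.22 (-1.28 ± 0.05; adjusted p = 7.45e-05). Without replicate 2 its adjusted p was 0.0530, and with the software ratio it was 0.0618. Which strand a probe reads is not given in the sources used here, so signal from an overlapping gene was not separated from that of an antisense RNA. The same limit holds for CR14033, CG33941, CG14715 (overlapping CG18476), CG8204 (CG30466) and cl (Vps52). It also holds for sei (gammaSnap1 and ppk29), lncRNA:CR43241 (CG42748), snRNA:U12 (Baldspot), lncRNA:Hsromega (mir-4951) and LysE (mwh).

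7SLRNA:CR32864, the RNA of the signal recognition particle that guides ribosomes to the endoplasmic reticulum, had log2 ratios of -1.19, -1.67 and -0.83 (-1.23 ± 0.42; adjusted p = 0.00342). The gene has a close copy, 7SLRNA:CR42652, and the probe may read both. CG33941, which overlaps the kinase gene Asator, had -1.10, -1.02 and -1.43 (-1.18 ± 0.22; adjusted p = 0.000537). Both were lower on every array, which the naming rule required, with the wider spread in the 7SL RNA. Without replicate 1 the adjusted p was 0.160 for the 7SL RNA and 0.0787 for CG33941, and without replicate 2 it was 0.0949 and 0.0731. With the software ratio it was 0.0989 and 0.0543. At a normexp offset of 0 the 7SL RNA missed the threshold too (0.054).

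A further 6 decreases passed the adjusted p at just under 2-fold or less in the deposited ratios. sei, which encodes an ERG-type potassium channel whose mutants have seizures on heating, had -1.03, -0.99 and -0.94 (-0.98 ± 0.05; adjusted p = 0.000168). CG15533, annotated as an acid sphingomyelinase, had -1.08, -0.82 and -1.09 (-0.99 ± 0.15; adjusted p = 0.000478), with the control channel above background on 1 array. lncRNA:CR43241 had -0.86, -0.61 and -1.47 (-0.98 ± 0.44; adjusted p = 0.00927), and it missed the threshold at a normexp offset of 0 (0.0932). The 3 were lower on every array, which the naming rule required, and the last of them varied most. CtsB, the lysosomal protease cathepsin B, had -0.66, -0.72 and -0.82 (-0.73 ± 0.08; adjusted p = 0.000623), and CG5214 had -0.69, -0.72 and -0.73 (-0.71 ± 0.02; adjusted p = 0.00044). Uhg5, the sixth, is given with its class below. Without replicate 1 or without replicate 2 all 6 missed the threshold, with adjusted p from 0.0515 to 0.204. The sizes of dim genes moved with the scaling, with the software ratio at -3.52 for CG15533 (adjusted p = 0.0454), -2.13 for lncRNA:CR43241 (0.121) and -1.26 for CtsB (0.036), and CG5214 fell to -0.11 under median centring (0.541).

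The host genes of small nucleolar RNAs, long noncoding transcripts whose introns yield the guides for ribosomal RNA modification, were lower in 3 of 3 cases. Uhg5 had log2 ratios of -0.57, -0.72 and -0.95 (-0.75 ± 0.19; adjusted p = 0.00221, limma). Uhg3 had -0.45, -0.39 and -0.48 (-0.44 ± 0.05; adjusted p = 0.00308), and its second probe had the same mean of -0.44. Uhg2 had -0.23, -0.29 and -0.33 (-0.28 ± 0.05; adjusted p = 0.0162). The share of all probes that passed in this direction was 8.01%. Of the 5 small nucleolar and Cajal body RNAs with a probe, 0 passed limma's adjusted p and 3 had an unadjusted p under 0.05, with a median log2 ratio of -0.15. Median centring without intensity-dependent correction left Uhg5 at -0.17 and turned Uhg3 to 0.18 and Uhg2 to 0.21, none of which passed the test there. All 3 also missed the threshold at a normexp offset of 0 (adjusted p = 0.0632 for Uhg5, 0.0875 for Uhg3 and 0.156 for Uhg2) and with the software ratio (0.0695, 0.0557 and 0.0562).

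Of the 5 spliceosomal RNAs with a probe, 2 were higher and 0 were lower by limma's adjusted p, which 7.15% and 8.01% of all probes passed in these directions, and 4 of the 5 had an unadjusted p under 0.05. snRNA:U12 had 0.22, 0.57 and 0.71 (0.50 ± 0.25; adjusted p = 0.0199), and snRNA:U2:34ABb had 0.31, 0.44 and 0.24 (0.33 ± 0.10; adjusted p = 0.0154). The remaining 3 did not pass, at means of 0.30 for snRNA:U1:21D, 0.05 for snRNA:U1:82Eb and -0.17 for snRNA:U11. U1 and U2 RNAs come from several near-identical genes, so their probes are not specific to 1 copy. Both increases missed the threshold at a normexp offset of 0 (adjusted p = 0.129 and 0.145) and with the software ratio (0.172 and 0.0845).

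The remaining noncoding classes are set beside the 7.15% of all probes that passed higher and the 8.01% that passed lower. Of 104 genes named as long noncoding RNAs, 5 were higher, 7 lower and 92 did not pass, with a median log2 ratio of 0.02. Of 63 antisense RNA genes, 3 were higher, 4 lower and 56 did not pass, with a median of 0.02. lncRNA:Hsromega, the heat-inducible RNA that organizes omega speckles in the nucleus, was measured by 5 named probes. The probes of 1 of its transcripts had means of 0.35 and 0.22 and passed (adjusted p = 0.0211 and 0.0452), while those of its other transcripts had 0.09, 0.05 and 0.05 and did not pass. At the most significant probe the arrays gave 0.29, 0.24 and 0.51. The increase was thus small and concerned 2 of 5 probes. At the most significant probe it missed the threshold with any 1 array left out (adjusted p from 0.0683 to 0.215). The same probe missed it at a normexp offset of 0 and with the software ratio (0.0962 and 0.0732).

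The other heat shock gene with a probe, Hsc70-1, had log2 ratios of 0.02, -0.17 and 0.23 and did not pass (0.03 ± 0.20; adjusted p = 0.883). Of the 30 genes listed for heat shock and chaperones, these 2 had a named probe. The list was therefore read at 2 genes only, with 1 higher and 1 not past the test. Temperature differed together with strain, balancer, GAL4, GAL80 and dye, so an effect of the 29 °C treatment was not tested.

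A list of 33 genes was drawn up around JAK/STAT and EGFR, the pathways that pattern follicle cells, and 4 of them had a named probe. Of these 4, Dad and puc belong to BMP and JNK signaling and do not read those pathways directly. In control ovaries no ligand or receptor transgene was present, so these values give the baseline of the driver line. By the adjusted p 1 was higher, 1 was lower and 2 did not pass. Dad, the inhibitory Smad of BMP signaling, had log2 ratios of 0.44, 0.45 and 0.43 (0.44 ± 0.01; adjusted p = 0.0026, limma). kek1, a transmembrane inhibitor of EGFR that the pathway itself induces, had -0.20, -0.57 and -0.48 (-0.42 ± 0.19; adjusted p = 0.0197). These are 1.36-fold higher and 1.33-fold lower signals. At a normexp offset of 0 both missed the threshold (adjusted p = 0.0558 for Dad and 0.147 for kek1, limma). With the software ratio they missed it too (0.0616 and 0.172). kek1 turned to 0.12 under median centring without intensity-dependent correction (adjusted p = 0.509) and missed the threshold with any 1 array left out (from 0.0853 to 0.272), and Dad missed it without replicate 1 (0.093) and without replicate 2 (0.112).

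jim, a zinc-finger transcription factor gene, had 0.31, 0.21 and 0.12 (0.21 ± 0.10; adjusted p = 0.0635), and puc, the JNK phosphatase gene, had 0.30, 0.26 and 0.08 (0.21 ± 0.12; adjusted p = 0.0785). Both were above 0 on 3 of 3 arrays and did not pass.

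Markers of the ovary's own cells were hardly represented. Of 29 germline markers 1 had a named probe, exu, a factor for the localization of bicoid mRNA, with 0.09, -0.10 and 0.09 (adjusted p = 0.836). Of 21 follicle cell markers 1 had a named probe, eya, which encodes a transcriptional cofactor. Its probes had means of -0.34 and -0.38 (adjusted p = 0.0152 and 0.017). At the first of them the control channel was not well above background on any array, so the size of that difference was not measured. The values were -0.46, -0.27 and -0.28 at this probe and -0.28, -0.30 and -0.55 at the other, lower on every array and dim throughout. The most significant probe of eya missed the threshold with any 1 array left out (adjusted p from 0.0878 to 0.189). It also missed it at a normexp offset of 0 and with the software ratio (0.0679 and 0.0539). LanA, a laminin chain and the only member of 22 matrix genes with a named probe, had 0.23, 0.06 and -0.27 (adjusted p = 0.98). Eggshell, yolk, muscle, hemocyte, fat body, gut, testis, immune, detoxification and eye pigment lists had 0 members with a named probe, so the tissue label was not tested through them.

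Ribosomal protein genes are few among the named probes, and 8.01% of all probes passed lower. Of 4 cytosolic members 1 was lower, RpL30, with -0.22, -0.33 and -0.41 (-0.32 ± 0.10; adjusted p = 0.016), and 3 did not pass. Of 3 mitochondrial members 2 were lower, mRpL14 with a mean of -0.49 (adjusted p = 0.0448) and mRpS16 with -0.28 (adjusted p = 0.0497), and mRpL52 at 0.18 did not pass. All 3 decreases turned to increases that did not pass, from 0.11 to 0.31, under median centring without intensity-dependent correction. They also missed the threshold at a normexp offset of 0 (adjusted p from 0.166 to 0.23) and with the software ratio (from 0.1 to 0.252). Of 6 histone genes 0 passed limma's test, adjusted or unadjusted, with means from -0.11 to 0.18. Histone gene copies are nearly identical, and their probes are not specific to 1 copy.

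Other protein-coding genes past the adjusted p are given here as examples chosen after their values were seen. Lower were Rae1, which takes part in mRNA export, at -0.79, -0.71 and -0.51, and ATPsynG, a subunit of the mitochondrial ATP synthase, at -0.65, -0.71 and -0.62. Gen, an endonuclease that cuts Holliday junctions, had -0.61, -0.60 and -0.61. Madm had -0.62, -0.84 and -0.61, and Polr1H, a subunit of RNA polymerase I, had -0.59, -0.53 and -0.63. Under median centring Gen lay at -0.04, Rae1 at -0.09 and ATPsynG at -0.18, none of which passed, and Rae1, Madm and Polr1H missed the threshold with the software ratio (adjusted p from 0.0564 to 0.103). Higher were Cf2, a zinc-finger factor known from follicle cells, at 0.27, 0.38 and 0.68, Hsl, the hormone-sensitive lipase, at 0.32, 0.35 and 0.34, and Polr2F, a subunit of RNA polymerase II, at 0.28, 0.23 and 0.66. Each of these 8 genes had the same sign on 3 of 3 arrays, which is likely for any gene chosen for passing the test. The sizes moved with the scaling for dim genes, with the software ratio at -2.27 for Polr1H, -2.09 for Madm and 1.01 for Cf2. Hsl and Polr2F missed the threshold at a normexp offset of 0 (0.117 and 0.199) and with the software ratio (0.0669 and 0.19), as did Cf2 at an offset of 0 (0.0644) and Rae1 (0.0603).

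The share of calls differed with the kind of sequence behind a probe. Probes built on FlyBase transcripts were called in 1.45% of 21630 cases, those on cDNA clones in 2.61% of 1262 and those on assembled consensus sequences in 0.887% of 4622, against 1.28% of all probes. Among clones, those from the SD library of Schneider cells had 10 of 88 called (11.4%, 4 higher and 6 lower), and 38.6% passed the adjusted p. Clones of the LD and RE embryo libraries had 9 of 241 called (7 higher and 2 lower), those of the GM ovary library 1 of 87, those of the AT testis library 1 of 145, and those of the GH, HL and RH head libraries 4 of 309. The origin of the clone library does not say where a gene is used, and no difference between libraries was tested.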

How the data were processed

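The authors scanned 2-color Agilent arrays with Feature Extraction 11.0.1.1 and deposited, per the file headers, median spot intensity and background in both channels and a log10 ratio of that software. The values tested, log2 ratios that the authors deposited with 2 decimals, were made with limma by normexp background correction, loess within arrays and quantiles between arrays, and which arrays entered the quantile step is not given in the sources used here. The rows followed the scanner files' spot order (r from 0.718 to 0.768, against 0.012 or less by feature number). Here control features were removed, spots of a probe averaged, and the mean tested against 0 with limma 3.58.1 in R 4.3.3 (empirical Bayes, two-sided, Benjamini-Hochberg over 32162 probes). Calls needed an adjusted p under 0.05 and a 2-fold difference. The number of arrays limits the precision.

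Gene names come from RefSeq (Release 6), where exactly 1 gene matched by accession (324 probes), clone name (158) or transcript identifier (12). The array uses an older build, so no coordinates are given, and no sequence table was used. Named were the 10 largest increases and decreases by a gene's most significant probe (called genes first, then those past the adjusted p), list members past the adjusted p, and the 2 unnamed probes most changed each way. The members and lists were chosen with earlier results of these data known. In the scanner intensities, normexp with an offset of 50 preceded loess for the bounds. The fit was checked on simulated data.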

Additional observations from a re-analysis of the deposited data

How the results depend on the processing

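The counts of 202 higher and 210 lower probes stayed within 1.5 times under 10 alternatives each. Among these was centring on the array median, which could not change them. Scanner intensities with normexp at offset 0 and loess gave 331 and 344, the ratio of the scanner software 322 and 319, and median centring without loess 876 and 82. A test against a 2-fold change (limma's treat) gave 90 and 62, a 1.5-fold limit 573 and 670, and no fold limit 2301 and 2576. Leaving out 1 control array gave from 64 to 207 higher and from 42 to 211 lower, lowest without replicate 2, and without replicate 1 the counts were 105 and 71. The means of the 24 named genes and 4 unnamed probes were set against the main fit in 503 cases. They kept their direction and side of the threshold in 415, lost the threshold in 86 and changed direction in 2. The 2 were kek1 at 0.12 under median centring and A_09_P030671 at -0.26 when the probes of its transcript were averaged. The 1.5-fold limit and the lack of a fold limit reuse the main fit, and the array medians were already 0 before centring on them. Agreement in those cases was fixed by construction and says nothing about stability. Of the 24 genes, 21 missed the threshold without replicate 2, 18 without replicate 1, 4 without replicate 3, 12 with the software ratio, 10 at offset 0, 19 under treat and 2 (Uhg5 and CG5214) under median centring. Of the cases in which the cause was not shown by the alternative's construction (fewer arrays, a stricter null value), the cause was not tested. No paired analysis was possible because the comparison has 1 group of arrays and the reference is the same pool on each.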
